A study of Mus musculus with 6 samples.

Results

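Semaphorins and plexins are described here through 9 genes of 20822 in the single-cell count table of a mouse retina study: the ligand genes Sema7a, Sema3c, Sema3f, Sema3g, Sema6a and Sema6d and the receptor genes Plxnd1, Plxna2 and Plxnc1. They were picked by name, with their levels in these data already known, and all 9 are in the table. Unique molecular identifiers (UMIs, one per captured mRNA molecule) were summed over the cells of each of 10 cell types in each replicate and expressed as CPM, the UMIs of a gene in each 1000000 UMIs of that sum. The levels of the members and their differences between genotypes are therefore given as descriptions, with Sema7a in Tip ECs looked at most closely.

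Retinas came from mice at P14 of oxygen-induced retinopathy (OIR), in which pups are kept in high oxygen and then returned to room air, so that retinal vessels are first lost and then regrow as pathological tufts. Control eNOS+/+ mice (C57BL/6J) were compared with eNOS-/- mice, which are homozygous for a knockout allele of the endothelial nitric oxide synthase gene Nos3 on the same background, so that the loss is not limited to endothelial cells (ECs), and both genotypes had gone through OIR. Each of 3 replicates per genotype was a pool of retinas from which cells carrying CD31, an EC surface protein, were enriched on beads before Drop-seq, a droplet method that reads the 3′ end of each mRNA. The comparison asked how loss of eNOS changes gene expression in each EC subtype, named Tip, Structural and Proliferative ECs in the deposited annotation, and no retina without OIR was analysed here.

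Semaphorins are secreted or membrane-bound guidance cues that were first known from growing axons and that also steer growing vessels. They act through plexins, receptors whose inner part lowers the activity of Ras-family GTPases and thereby loosens integrin adhesion and the actin skeleton. Secreted semaphorins usually need a neuropilin as co-receptor, with Sema3e as an exception that binds Plxnd1 directly, and in the retina the Plxnd1 receptor on sprouting ECs is known for limiting and directing the sprout. Tip cells are the leading cells of a sprout.

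The 6 replicates held 8944 cells and 10361314 UMIs, with 2121 ECs in eNOS+/+ and 3804 in eNOS-/-. Tip EC sums held between 142593 and 715593 UMIs, Structural EC sums between 246958 and 1145608 and Proliferative EC sums between 78192 and 668540, and eNOS-/- replicate 3 had the smallest sums of Tip and Proliferative ECs. Known markers were highest in the type they name for every list checked, except that the neuroglia gene Vim was highest in Tip ECs. Markers of arterial ECs, used further on, were not part of that check. Libraries stood apart in the markers of other cell types held by their Structural ECs. In eNOS-/- replicate 3, 7 mural cell markers summed to 3759.6 CPM, against 12.5 to 176 CPM in the other 5 replicates, and 63 of its 186 Structural ECs held a UMI of at least 1 of them. In eNOS-/- replicate 2, neuron markers summed to 314 CPM against 3.74 to 52.4 CPM in the others, and rod markers to 811 CPM against 33.6 to 292 CPM, with a rod marker UMI in 501 of its 1358 Structural ECs. In eNOS+/+ replicate 2, immune cell markers summed to 299.6 CPM against 29.9 to 51.9 CPM. Between replicates, 3 cell barcodes were shared. The targeted gene Nos3, which encodes eNOS, measured 19.4, 36.6 and 23.6 CPM over all ECs of eNOS+/+ and 21.2, 16.1 and 32.8 CPM over those of eNOS-/-. These Nos3 values overlapped, and where the disrupted stretch of the gene lies relative to the 3′ reads is not given in the sources used here, so Nos3 does not check the genotype labels.

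The differences described here are led by Sema7a, whose genotypes did not overlap in Tip ECs, and Sema6d, whose genotypes did not overlap in Structural ECs. Of the genes kept by a filter on low counts, 10.3% did not overlap in Tip ECs and 10.5% in Structural ECs. Neither difference passed the threshold after adjustment over all genes. Sema6d, Plxnd1 and Plxna2 were higher in Tip than in Structural ECs in every replicate, Sema6d by a log2 ratio of only 0.07 in eNOS-/- replicate 3. The share of all genes that were so was not counted. The stretch before the annotated start of Sema7a, Sema6d and Plxnd1 is shown because the retina of OIR is starved of oxygen after the return to room air, and the core letters of the hypoxia response element, ACGTG and GCGTG, can be looked for there. Each line is 250 bases of GRCm38.p6 ending just before a RefSeq transcript start, read 5′ to 3′ on the gene's strand, with every ACGTG or GCGTG on either strand in capitals.
Sema7a (chr9:57939862-57940111, plus strand): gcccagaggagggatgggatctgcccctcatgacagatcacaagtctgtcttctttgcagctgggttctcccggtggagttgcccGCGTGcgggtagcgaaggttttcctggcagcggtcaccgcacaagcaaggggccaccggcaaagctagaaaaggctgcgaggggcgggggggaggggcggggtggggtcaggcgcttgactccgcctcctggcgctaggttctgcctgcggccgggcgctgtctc
Sema6d (chr2:124089719-124089968, plus strand): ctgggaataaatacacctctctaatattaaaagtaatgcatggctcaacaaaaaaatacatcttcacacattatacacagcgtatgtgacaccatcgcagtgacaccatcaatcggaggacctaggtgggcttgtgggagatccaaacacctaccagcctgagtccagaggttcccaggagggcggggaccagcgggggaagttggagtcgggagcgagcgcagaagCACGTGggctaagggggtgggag
Plxnd1 (chr6:115995006-115995255, minus strand): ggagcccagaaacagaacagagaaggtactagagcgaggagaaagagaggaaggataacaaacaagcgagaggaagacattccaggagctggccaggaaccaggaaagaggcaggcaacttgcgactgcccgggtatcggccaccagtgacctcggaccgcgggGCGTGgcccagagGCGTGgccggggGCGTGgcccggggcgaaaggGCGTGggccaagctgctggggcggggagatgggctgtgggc
None of these 3 windows overlaps an annotated exon. The Sema7a window holds 1 match, 165 bases before the start. RefSeq gives 2 starts of Sema6d, and the window before the other one (chr2:124653331-124653580, plus strand, also clear of exons) holds 0 matches and is not shown. In the Sema6d window shown the palindrome CACGTG is read as ACGTG on both strands, so its 2 matches overlap, 23 and 22 bases before the start. Plxnd1 has 4 matches, at 86, 73, 61 and 41 bases before the start. Of the 32851 promoter windows of the same length in the RefSeq table, 38.6% held at least 1 match and 2.58% held 4 or more. A window was given for 7 of the 9 members, and 6 of their 8 windows held a match. The Plxna2 window holds 1 match, 87 bases before the start, but overlaps an annotated exon and is not shown. Reads from the 3′ end do not show which start a transcript used, so the letters describe the windows and nothing was measured at them.

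Sema7a is a membrane-anchored ligand that binds Plxnc1 and integrins containing the beta chain Itgb1. Its gene (ENSMUSG00000038264) lies on GRCm38 chr9:57940112-57962865. Of the cell types, ECs held most Sema7a UMIs, and they also held most UMIs of all genes. Tip ECs held 248 Sema7a UMIs, Structural ECs 287 and Proliferative ECs 115, against 11 in mural cells, 13 in neurons and 9 in rods. No Sema7a UMI was found in immune cells, neuroglia, cones or Optc+ cells. There 3 UMIs would have been 17.9 CPM in immune cells, 22 CPM in neuroglia, 12.7 CPM in Optc+ cells and 55.5 CPM in cones. The cone value is above the mural cell mean given below, so absence from cones is not shown. Tip ECs averaged 124 ± 77.5 CPM, Structural ECs 74.5 ± 27.0 CPM and Proliferative ECs 61.0 ± 25.7 CPM (SD, n = 6), and these means lay within each other's summed SDs. Mural cells averaged 35.4 ± 32.8 CPM (SD, n = 5), which was within the summed SDs of Proliferative ECs. The neuron mean of 65.1 ± 132 CPM (n = 6) rested on eNOS-/- replicate 3, in which 2 UMIs in 10 neurons gave 335 CPM.

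**Figure D1:**
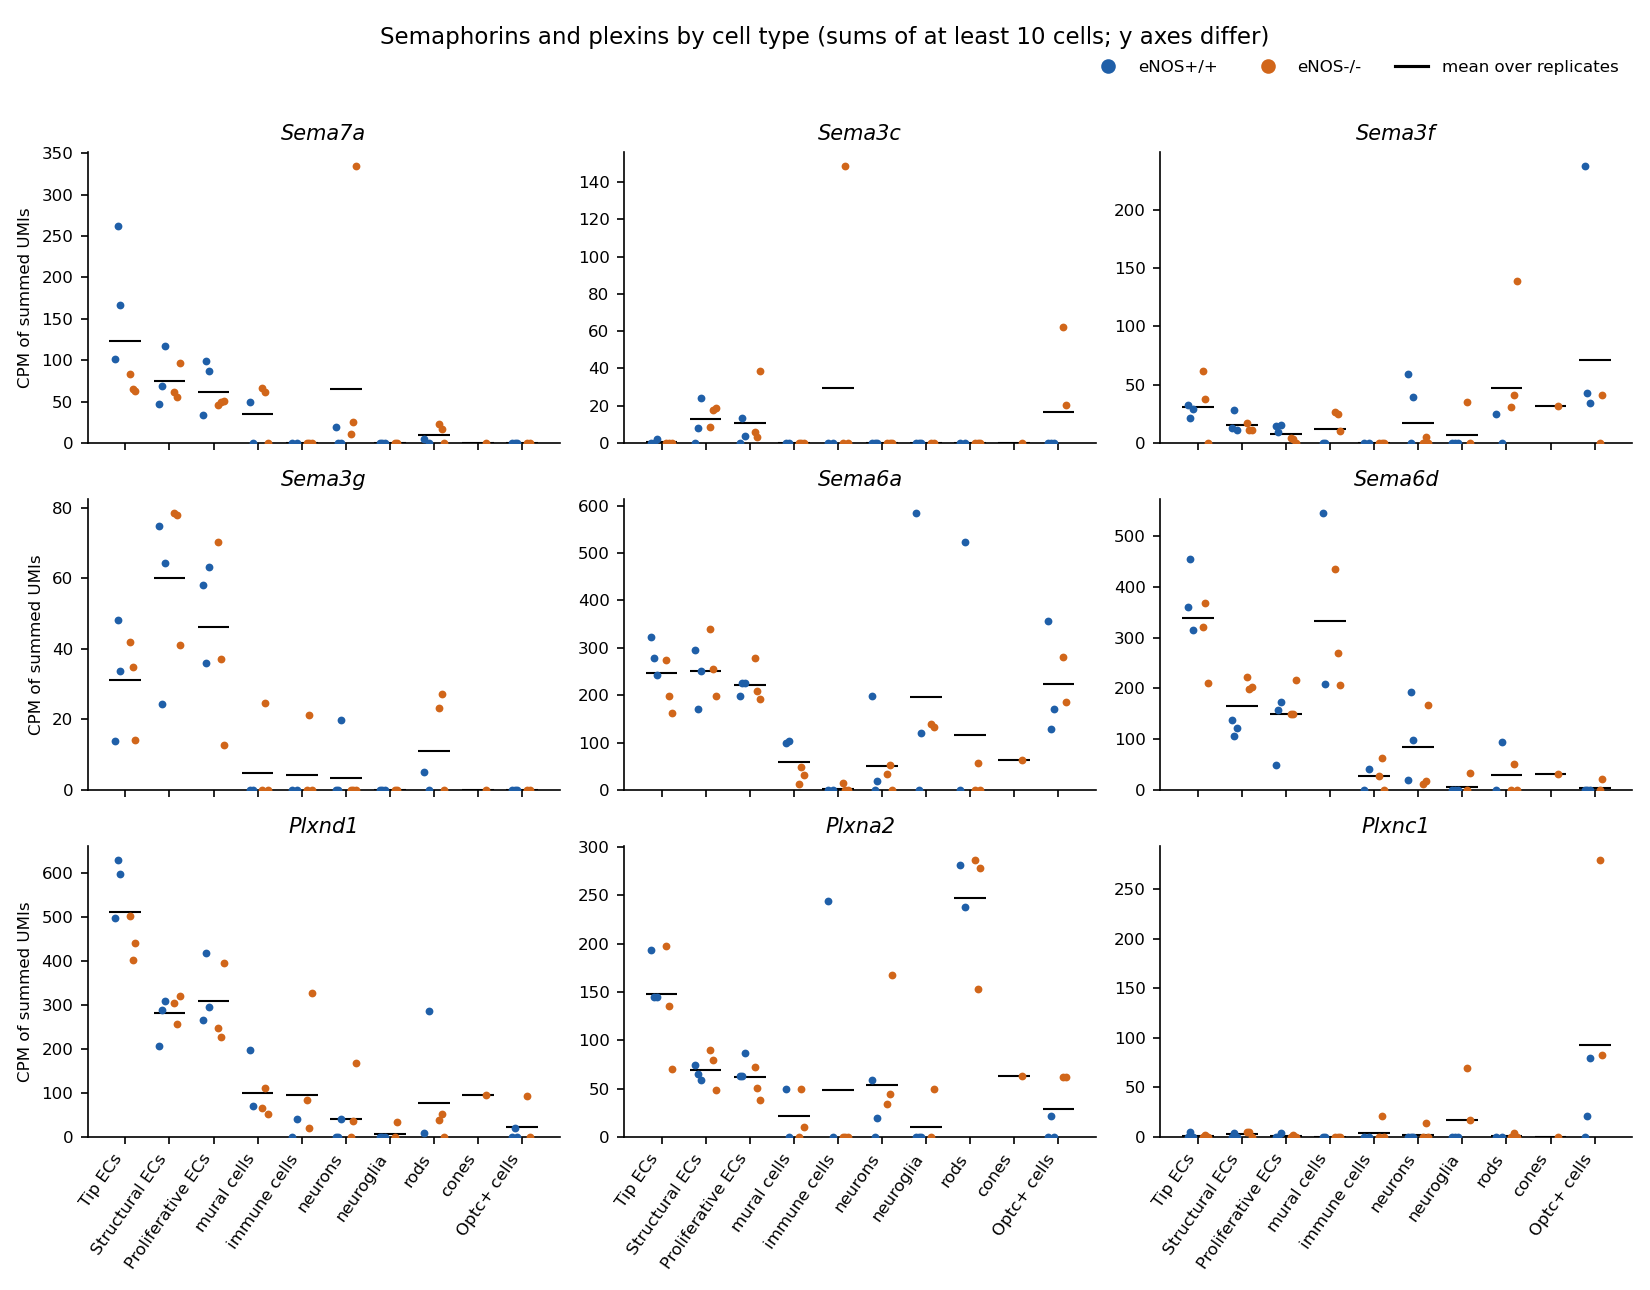
CPM of each of the 9 members in the 10 cell types, with one point per replicate that has at least 10 cells of that type (blue eNOS+/+, orange eNOS-/-), a line at the mean over replicates and a separate y axis for each gene. The mean is highest in Tip ECs for Sema7a, Sema6d and Plxnd1, in rods for Plxna2 and in Optc+ cells for Plxnc1, and the neuron mean of Sema7a is carried by 1 point at 335 CPM.

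In Tip ECs, Sema7a measured 101, 262 and 166 CPM in eNOS+/+ replicates 1, 2 and 3 and 83.8, 65.7 and 63.1 CPM in eNOS-/- replicates 1, 2 and 3. Every eNOS+/+ replicate was above every eNOS-/- replicate, and the eNOS+/+ replicates were spread more widely. Averages were 176 ± 80.7 CPM for eNOS+/+ and 70.9 ± 11.2 CPM for eNOS-/- (SD, n = 3 per genotype). These values rest on 22, 49 and 79 Sema7a UMIs in eNOS+/+ and on 42, 47 and 9 in eNOS-/-. Among the 5510 genes kept in Tip ECs, the genotypes did not overlap for 10.3%, and for 5.41% they did not overlap with eNOS-/- lower, as for Sema7a.

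The number in the library name falls between 701 and 703 for eNOS+/+ replicate 1 and eNOS-/- replicates 1 and 2, and between 704 and 706 for the other 3. In the first set Sema7a in Tip ECs was at 101 CPM in eNOS+/+ against 83.8 and 65.7 CPM in eNOS-/-. In the second it was at 262 and 166 CPM against 63.1 CPM. Since the genotypes did not overlap, eNOS-/- had to be lower in both sets, so the split is no check of the difference. What the number stands for is not given in the sources used here.

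The log2 fold change of Sema7a in Tip ECs (eNOS-/- relative to eNOS+/+) was -1.26 ± 0.32 (SE). Its Benjamini-Hochberg adjusted p over 5510 genes, from the quasi-likelihood test of edgeR, was 0.274, from an unadjusted p of 0.000559, the 10th smallest in that fit, and it did not pass the threshold of 0.05. Over the alternatives run, the log2 fold change ranged from -1.51 to -0.95. Since the genotypes did not overlap, leaving out a replicate could not change its sign. The edgeR adjusted p ranged from 0.0571 without eNOS+/+ replicate 1 to 1.00 without eNOS-/- replicate 2. Without eNOS+/+ replicate 2, the highest replicate, the log2 fold change was -0.95, also with an edgeR adjusted p of 1.00. With DESeq2 it was -1.29 with an adjusted p of 0.523, and with the set of library numbers as a term in edgeR, added after seeing the data, -0.95 with an adjusted p of 0.535. Mural cell markers summed to 4.61 to 48.1 CPM in Tip ECs of eNOS+/+ and 23.9 to 238 CPM in those of eNOS-/-, and without the cells that held one the log2 fold change was -1.34 with an edgeR adjusted p of 0.236. Neuroglia markers, which include Vim, summed to 1683 to 2171 CPM in Tip ECs of eNOS+/+ and 2160.0 to 3020 CPM in those of eNOS-/-. Most of that sum was Vim, which was itself highest in Tip ECs. Over all Tip ECs pooled it gave 2334 of 2507 CPM, so the sum says little about RNA from neuroglia. Rod markers summed to 41.5 to 156 CPM in Tip ECs of eNOS+/+ and 21.0 to 306 CPM in those of eNOS-/-. The part of these markers in the Sema7a difference was not tested.

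In Structural ECs, Sema7a measured 47.4, 68.8 and 117 CPM in eNOS+/+ and 61.1, 55.4 and 97.2 CPM in eNOS-/-. In Proliferative ECs it measured 33.8, 98.96 and 86.8 CPM in eNOS+/+ and 46.4, 49.0 and 51.2 CPM in eNOS-/-. The genotypes overlapped in both subtypes. The log2 fold changes were -0.29 ± 0.35 and -0.61 ± 0.40 (SE), with adjusted p of 0.973 and 0.878 by the same edgeR test. A test of whether the Tip EC difference differed from that in Structural ECs gave a log2 difference of -0.83 ± 0.37 (SE), with an unadjusted p of 0.0299 and an edgeR adjusted p of 0.998 over 7019 genes, so a difference between the subtypes was not shown.

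**Figure D2:**
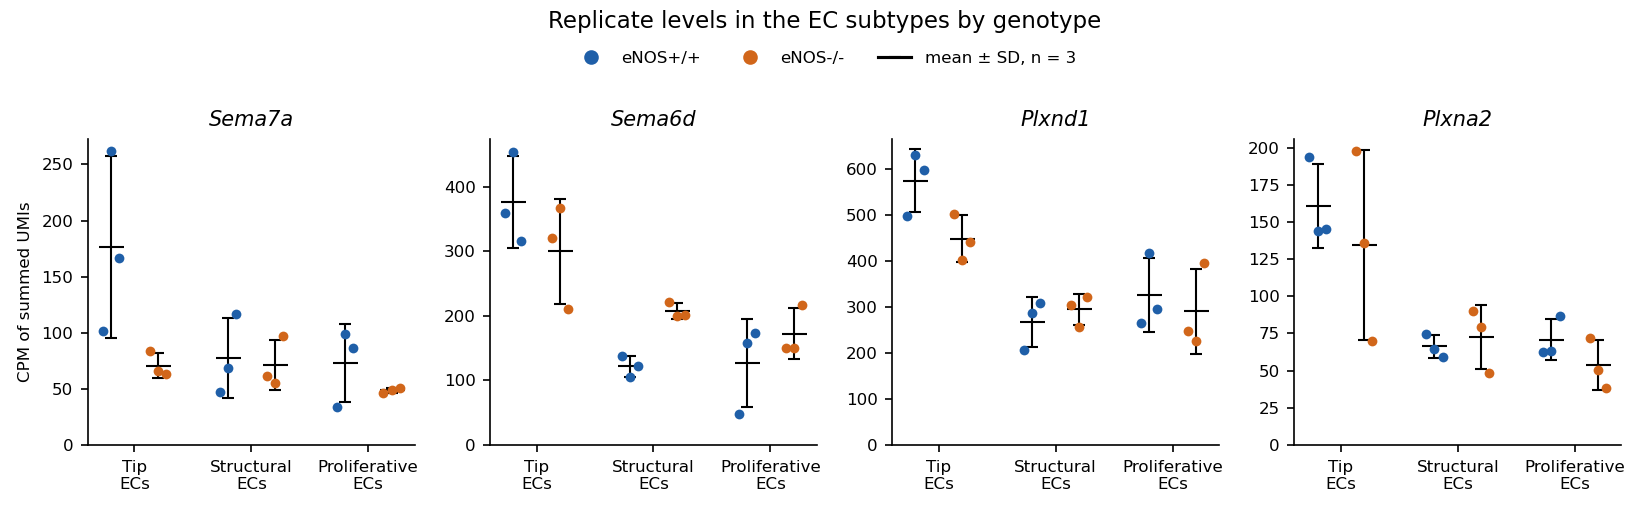
CPM of Sema7a, Sema6d, Plxnd1 and Plxna2 in the 3 EC subtypes, one point per replicate, with eNOS+/+ (blue) and eNOS-/- (orange) side by side and bars for mean and SD (n = 3). The genotypes are apart for Sema7a in Tip ECs (176 against 70.9 CPM) and for Sema6d in Structural ECs (122 against 208 CPM), and overlap elsewhere. Of all genes kept, 10.3% in Tip ECs and 10.5% in Structural ECs are apart in this way.

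Depth differs between cell types, and the median cell held 1007 UMIs among Tip ECs, 491 among Structural ECs, 963.5 among Proliferative ECs and 361 among rods. Cells were therefore also drawn down to 500 UMIs each, leaving out shallower ones. At that depth 69 of 1091 Tip ECs held a Sema7a UMI (6.32%, 95% Wilson interval 5.03 to 7.93%), as did 55 of 1647 Structural ECs (3.34%, 2.57 to 4.32%) and 17 of 807 Proliferative ECs (2.11%, 1.32 to 3.35%). In rods, taken as the comparison for RNA that is free in the suspension, the share was 0.475%, or 2 of 421 cells. It was 0 of 114 immune cells, which allows a share of up to 2.63%, and 0 of 98 neuroglia, which allows up to 3.06%, each limit being 3 cells of the total. These intervals and limits cover counting error only. Without drawing down, 13.6% of Tip, 6.42% of Structural and 7.66% of Proliferative ECs held one.

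By replicate, the share of Tip ECs with a Sema7a UMI at 500 UMIs was 6.19, 12.6 and 10.4% in eNOS+/+ and 2.74, 3.92 and 5.26% in eNOS-/-. As with CPM, from which these shares are not independent, no eNOS-/- replicate reached the lowest eNOS+/+ replicate. The closest replicates rest on few cells, 3 of 57 in eNOS-/- replicate 3 and 6 of 97 in eNOS+/+ replicate 1. How many of all genes have shares apart in this way was not counted.

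Tip ECs with a Sema7a UMI were set beside those without one at the same depth. Of the 69 cells with a Sema7a UMI, 46 came from the 458 Tip ECs of that depth in eNOS+/+ and 23 from the 633 in eNOS-/-. Angpt2, which encodes an angiopoietin released by sprouting ECs, was at 869.6 CPM in them and at 403 CPM in the 1022 others, and was higher with Sema7a in 5 of 6 replicates. Other Tip EC markers differed less: Apln, a peptide hormone gene, was at 928 against 973 CPM and Esm1, a proteoglycan gene, at 406 against 274 CPM. Plxnd1 stood at 522 against 540.1 CPM. For Sema6a there were 0 UMIs in the cells with Sema7a, where 3 UMIs would have been 87.0 CPM, and 122 UMIs in the others (239 CPM). With 69 cells these are sums of few UMIs, and no test was made of them.

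Over the 10 cell types, the genes whose mean levels followed those of Sema7a most closely were Chst7 (Pearson r of log2 levels 0.988), Nova2 (0.983), Efr3b (0.963), Arap3 (0.961) and Stx1a (0.953), among 5509 genes kept in Tip ECs. The points share libraries and depth, and a gene found mainly in ECs will score highly. Among the members, Sema6d came closest, with r = 0.885.

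Sema3c, a ligand that acts through neuropilins and Plxnd1, gave 56 UMIs over all Structural ECs, 13 over Proliferative ECs and 1 over Tip ECs. In Structural ECs it measured 0, 8.10 and 23.9 CPM in eNOS+/+ and 8.73, 17.9 and 18.7 CPM in eNOS-/-, so both genotypes covered much the same range. Immune cells had 7 Sema3c UMIs, in 4 cells of 1 library.

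Sema3f, a ligand that signals through Nrp2, measured 32.3, 21.4 and 29.5 CPM in Tip ECs of eNOS+/+ and 61.8, 37.7 and 0 CPM in those of eNOS-/-, where 3 UMIs in the last replicate would have been 21.0 CPM. The eNOS-/- replicates thus lay on both sides of eNOS+/+, and the log2 fold change was 0.50 ± 0.54 (SE). In Proliferative ECs, Sema3f measured 14.5, 8.996 and 15.8 CPM in eNOS+/+ and 4.49, 3.38 and 0 CPM in eNOS-/-. In the last replicate 3 UMIs would have been 38.4 CPM, more than any of these values. The genotypes did not overlap there, but with 14 UMIs in all Sema3f was removed by the filter on low counts and was not tested. Among the genes that the filter kept there, 10.8% did not overlap (5.43% with eNOS-/- lower). Its highest mean was in Optc+ cells, at 71.0 ± 94.7 CPM (SD, n = 5).

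Sema3g, an EC ligand known from arteries, was lower in Tip than in Structural ECs in 5 of 6 replicates. It measured 13.8, 48.1 and 33.7 CPM in Tip ECs of eNOS+/+ and 41.9, 34.9 and 14.0 CPM in those of eNOS-/-. In Structural ECs it measured 74.9, 24.3 and 64.2 CPM in eNOS+/+ and 78.6, 77.8 and 41.1 CPM in eNOS-/-. Markers of arterial ECs summed to 168 to 219 CPM in Tip ECs and 397 to 756 CPM in Structural ECs, and their part in the Sema3g levels was not tested. Not all of them were highest in ECs. Over pooled cells Gja4 was at 229 CPM in mural cells against 154 CPM in Structural ECs. Efnb2 was at 154 CPM in neuroglia against 108 CPM, and Stmn2 at 176 CPM in neurons against 64.7 CPM.

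The transmembrane ligand Sema6a, which binds Plxna2 and Plxna4, had EC subtype means within each other's summed SDs. It measured 323, 278 and 242 CPM in Tip ECs of eNOS+/+ and 273, 198 and 161 CPM in those of eNOS-/-. Structural ECs held 294, 170.1 and 252 CPM in eNOS+/+ and 339, 256 and 198 CPM in eNOS-/-, overlapping throughout. Outside ECs, Sema6a reached 224 ± 92.7 CPM in Optc+ cells and 195 ± 225 CPM in neuroglia (SD, n = 5 each), whereas immune cells had 1 UMI.

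Sema6d, a transmembrane ligand known to bind Plxna1, was highest in Tip ECs (338 ± 79.8 CPM, n = 6) and mural cells (333 ± 151 CPM, n = 5), which wrap around vessels. In Tip ECs it measured 359.5, 454 and 316 CPM in eNOS+/+ and 321, 367.5 and 210.4 CPM in eNOS-/-. In Structural ECs it measured 137, 105 and 122 CPM in eNOS+/+ and 222, 199 and 202 CPM in eNOS-/-. The genotypes overlapped in Tip ECs, and in Structural ECs every eNOS-/- replicate was above every eNOS+/+ replicate.

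Sema6d in Structural ECs averaged 122 ± 16.0 CPM in the eNOS+/+ replicates and 208 ± 12.2 CPM in the eNOS-/- replicates (SD, n = 3 per genotype). The log2 fold change was 0.74 ± 0.23 (SE), with an unadjusted p of 0.00508, the 47th smallest of 7577, and an edgeR adjusted p of 0.733, which did not pass. Over all genes of that subtype, 10.5% did not overlap between genotypes, 5.74% with eNOS-/- higher, as for Sema6d. Since mural cells hold Sema6d and eNOS-/- replicate 3 held mural markers, the fit was repeated without the ECs that had a mural marker UMI, a choice made after seeing the data, and gave 0.57 with an adjusted p of 0.762. Without eNOS-/- replicate 3 the log2 fold change was 0.74 with an adjusted p of 0.256. Without eNOS-/- replicate 2, which held rod and neuron markers, it was 0.77, and without eNOS+/+ replicate 2 it was 0.66, each with an edgeR adjusted p of 1.00. With the set of library numbers as a term it was 0.69 with an adjusted p of 0.508. In Proliferative ECs Sema6d overlapped, at 48.3, 157 and 174 CPM in eNOS+/+ and 149.6, 150.4 and 217 CPM in eNOS-/-.

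The Sema6d differences in Tip and Structural ECs had opposite signs, -0.27 ± 0.26 and 0.74 ± 0.23 on the log2 scale (SE). The test of the difference between them gave -0.92 ± 0.30 (SE), with an unadjusted p of 0.00328 and an edgeR adjusted p of 0.998. Of 7019 genes 0 passed that edgeR test (0%), with 275 (3.92%) at an unadjusted p under 0.05. For Proliferative against Structural ECs 0 passed as well, with 229 (3.26%) at an unadjusted p under 0.05.

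Plxnd1 encodes the receptor of Sema3e and, with neuropilins, of other secreted semaphorins. It measured 498, 630.3 and 598 CPM in Tip ECs of eNOS+/+ and 502.5, 402.5 and 442 CPM in those of eNOS-/-. The highest eNOS-/- replicate was just above the lowest eNOS+/+ replicate, so the genotypes met at their edges. They averaged 575 ± 69.1 and 449 ± 50.4 CPM (SD, n = 3 per genotype), and the log2 fold change was -0.36, which did not pass. In Structural ECs the values were 207, 287.5 and 309 CPM in eNOS+/+ and 305.5, 258 and 321 CPM in eNOS-/-. In Proliferative ECs they were 266, 418 and 296 CPM in eNOS+/+ and 248, 226 and 396.5 CPM in eNOS-/-. Both of these subtypes overlapped.

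Ordered by mean over the replicates, Plxnd1 stood highest in Tip ECs (512 ± 87.8 CPM), then Proliferative ECs (309 ± 80.2 CPM) and Structural ECs (281 ± 42.5 CPM; SD, n = 6 each), ahead of mural cells at 99.2 ± 59.7 CPM (n = 5). The step from Tip to Proliferative ECs and that from Structural ECs to mural cells exceeded the summed SDs, and the steps between the other neighbours did not. At 500 UMIs, 21.4% of Tip ECs, 13.1% of Structural ECs and 13.9% of Proliferative ECs held a Plxnd1 UMI, against 3.401% of mural cells.

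Plxna2, a receptor for Sema6a, was highest in rods, with 281 and 238 CPM in eNOS+/+ and 287, 153 and 278 CPM in eNOS-/- (247 ± 56.3 CPM, SD, n = 5). Tip ECs came next at 148 ± 46.4 CPM, a step within the summed SDs, and Structural ECs followed at 69.5 ± 14.9 CPM, a step beyond them (n = 6 each). In Tip ECs Plxna2 measured 194, 144 and 145 CPM in eNOS+/+ and 197, 136 and 70.1 CPM in eNOS-/-, with overlap and eNOS-/- replicate 3 the lowest. At 500 UMIs, 10.2% of rods and 7.06% of Tip ECs held a Plxna2 UMI.

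Plxnc1, the plexin receptor of Sema7a, was all but undetected in ECs, with 13 UMIs over Structural ECs and 2 each over Tip and Proliferative ECs. Optc+ cells, named for the extracellular matrix gene Optc, held 21 Plxnc1 UMIs in 16 cells. There it measured 0, 21.2 and 79.3 CPM in eNOS+/+ and 279.5 and 82.2 CPM in the eNOS-/- replicates with at least 10 such cells, a mean of 92.4 ± 110.6 CPM (SD, n = 5). The one replicate at 279.5 CPM set most of that mean. The other known Sema7a receptor chain, Itgb1, was present in every EC subtype, at 1624 ± 271 CPM in Tip ECs and 1169.5 ± 84.6 CPM in Structural ECs (n = 6 each).

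Within a replicate, the Tip and Structural EC sums come from the same suspension, and their log2 ratio takes out library differences that both sums share. Markers of other cell types were not shared equally. In eNOS-/- replicate 3, mural cell markers summed to 3759.6 CPM in Structural ECs against 238 CPM in Tip ECs. Their part in the ratios was not tested. Plxna2 was higher in Tip ECs in 6 of 6 replicates, with a log2 ratio of 1.04 ± 0.32, as were Sema6d (1.05 ± 0.71) and Plxnd1 (0.86 ± 0.31). The lowest Sema6d ratio, 0.07 in eNOS-/- replicate 3, was close to equal levels. The co-receptors Nrp1 (1.00 ± 0.47) and Nrp2 (0.71 ± 0.40) were also higher in 6 of 6 (SD, n = 6 each). Sema7a was higher in 5 of 6, at 1.09, 1.90 and 0.51 in eNOS+/+ and 0.46, 0.25 and -0.57 in eNOS-/-. Sema6a was near 0 (-0.03 ± 0.40), and Sema3g (-0.92 ± 1.04) and Sema3c (-2.41 ± 1.86) were lower in Tip ECs in 5 of 6. The subtypes were defined on these same cells, so no test was made, and Sema3c, Sema3f and Plxnc1 ratios rest on few UMIs. The share of all genes higher in 6 of 6 was not counted, so how unusual that is cannot be read from these values. Sema4a, without a UMI in either subtype, also came out higher in 6 of 6 through the 0.5 UMI added to each sum.

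**Figure D3:**
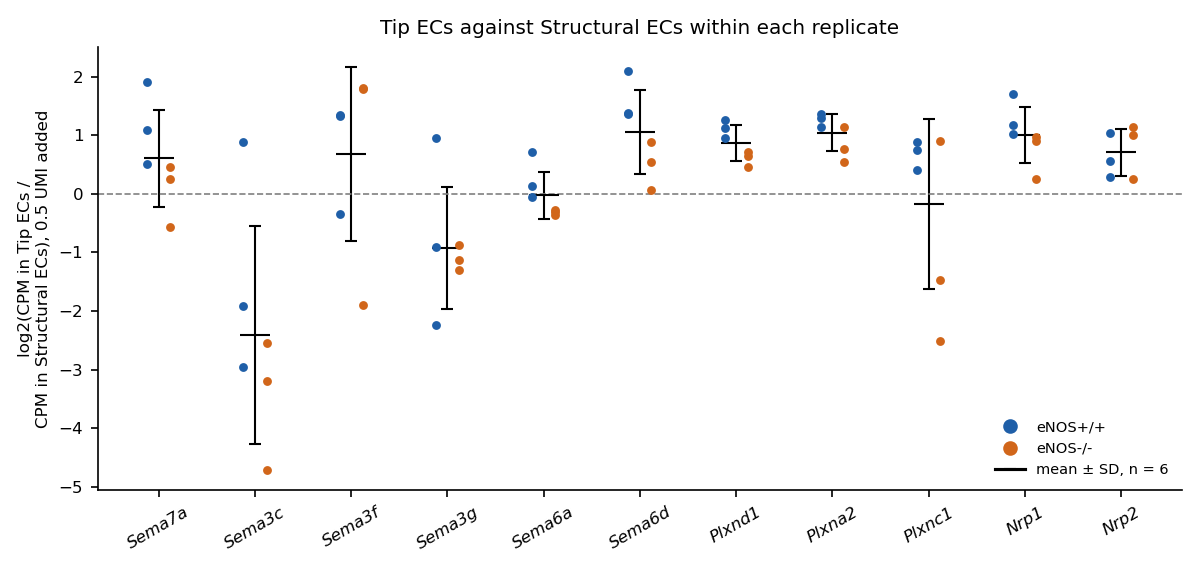
Log2 ratio of Tip EC to Structural EC CPM within each replicate for the 9 members and the co-receptors Nrp1 and Nrp2 (blue eNOS+/+, orange eNOS-/-), with mean and SD over 6 replicates and a dashed line at equal levels. Sema6d, Plxnd1, Plxna2, Nrp1 and Nrp2 lie above 0 in 6 of 6 replicates, and Sema3c and Sema3g lie below 0 in 5.

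Across all genes, few differences between genotypes passed the edgeR test after Benjamini-Hochberg adjustment. The fit of Tip ECs gave 1 of 5510 (0.0181%), that of Structural ECs 2 of 7577 (0.0264%), that of Proliferative ECs 1 of 4607 (0.0217%) and that of all ECs 2 of 9483 (0.0211%). The genes that passed were AI506816, lower in eNOS-/- in every one of these fits, and Igkc, an immunoglobulin gene, higher in Structural ECs and all ECs, both named after their values were seen. Of the members, the filter kept 7 for Tip ECs and also for Structural ECs, 6 for Proliferative ECs and 8 for all ECs, and 0 passed. At an unadjusted p under 0.05 Tip ECs had 1 member (Sema7a), against 4.95% of all genes, and Structural ECs had 1 (Sema6d), against 5.52%. Proliferative ECs had 0, against 6.38% of all genes, and all ECs together had 1 (Sema7a), against 5.78%.

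In Tip ECs the log2 fold change was negative for 5 of the 7 members kept and positive for 2, with a median of -0.27, against 0.0046 over all genes tested. In Structural ECs it was positive for 6 and negative for 1, with a median of 0.13 against 0.010 over all genes. In Proliferative ECs it was positive for 2 and negative for 4, with a median of -0.17 against 0.015. These are the values of genes picked with results known, and the replicates measure the spread between pools of retinas.

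**Figure D4:**
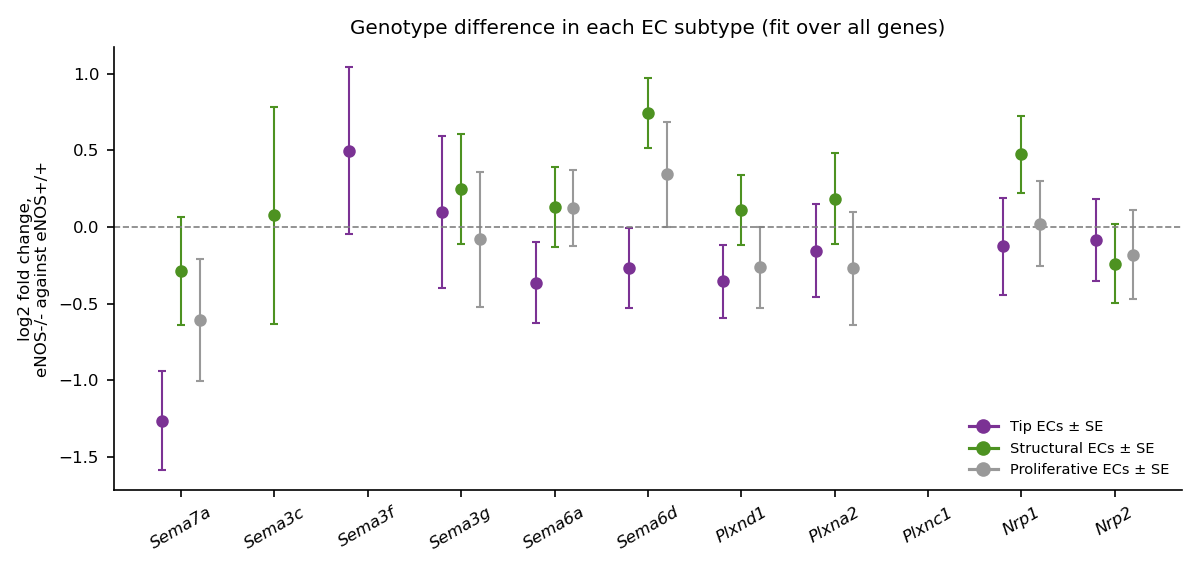
Log2 fold change (eNOS-/- relative to eNOS+/+) with SE for each member, Nrp1 and Nrp2 in Tip, Structural and Proliferative ECs, where the filter kept the gene. Sema7a in Tip ECs (-1.26) and Sema6d in Structural ECs (0.74) lie farthest from 0, and no member passed the adjusted threshold.

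Of the 22 other semaphorin, plexin and neuropilin genes listed, 20 were in the table, and they were spread over the retina. Neuroglia were highest for Sema5a (235 ± 165 CPM), Sema3e (163 ± 159 CPM) and Sema5b (117 ± 109.9 CPM, SD, n = 5 each), immune cells for Sema4d (116 ± 86.9 CPM, n = 5), mural cells for Sema4c (79.5 ± 34.6 CPM, n = 5) and rods for Plxna4 (90.4 ± 69.0 CPM, n = 5). Tip ECs were highest for Nrp1 (521 ± 235 CPM) and Nrp2 (179 ± 22.2 CPM, n = 6 each). By count, neuroglia led for 5 of the 20, Optc+ cells for 4 and Tip ECs for 3, some of them on a handful of UMIs. In the genotype fits 5 of these genes were kept among Tip ECs, also 5 among Structural ECs, and 3 among Proliferative ECs, and 0 passed.

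**Figure D5:**
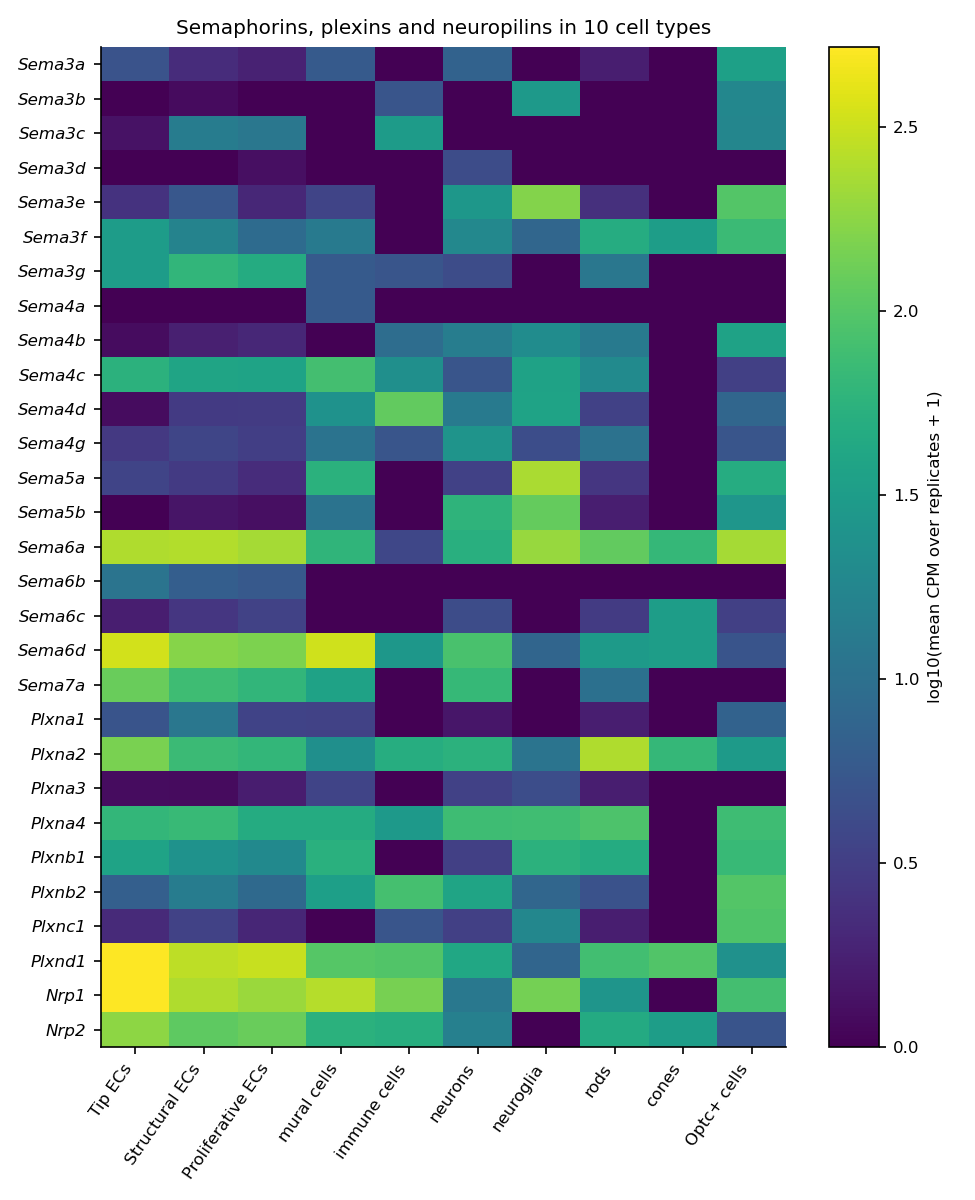
Heat map of the 9 members and the 20 other semaphorin, plexin and neuropilin genes (vertical axis) in the 10 cell types (horizontal axis), coloured by log10 of the mean CPM over replicates plus 1, with cones from 1 replicate. Sema5a, Sema3e and Sema5b are highest in neuroglia, Sema4d in immune cells, Sema4c in mural cells, and Nrp1 and Nrp2 in Tip ECs.

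Of 37 genes that act with or after plexins, the filter kept 20 for Tip, 23 for Structural and 16 for Proliferative ECs, and 0 passed. Rras, a GTPase that plexins switch off, averaged 98.6 ± 9.14 CPM in Structural ECs of eNOS+/+ and 61.9 ± 19.7 CPM in those of eNOS-/- (SD over 3 replicates). The genotypes did not overlap, as for 10.5% of all genes kept there. The log2 fold change was -0.75 with an edgeR adjusted p of 0.864. In Proliferative ECs the log2 fold change of Rras was -1.21 with an adjusted p of 0.601. Without eNOS-/- replicate 3 Rras passed the same edgeR test, at -1.56 with an adjusted p of 0.0210. In that fit 73 of 5237 genes passed, 68 of them lower in eNOS-/-, against 1 of 4607 with all replicates. Rnd1, a GTPase that binds plexins, averaged 46.1 ± 24.1 and 19.4 ± 4.32 CPM in Structural ECs, with overlap and a log2 fold change of -1.31 (edgeR adjusted p 0.733). Arf6, a GTPase of membrane traffic, had log2 fold changes of -0.66 in Tip ECs and -0.77 in Structural ECs, and Rac1, a GTPase of the actin skeleton, of -0.60 in Tip ECs and -0.61 in Proliferative ECs. Rhoj, an EC GTPase that binds Plxnd1, was at 0.52 in Proliferative ECs, and Nrp1 at 0.47 in Structural ECs. None of these passed with all 6 replicates.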

How the data were processed

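Drop-seq libraries of 6 pools of OIR retinas were analysed, 3 per genotype. The authors demultiplexed reads with bcl2fastq, aligned them to GRCm38 with kb-python, filtered cells on genes detected and mitochondrial share, and named cell types and EC subtypes with Seurat 3. They deposited UMI counts without normalization, and an annotation of each cell with its replicate, its cell type and its mitochondrial percent (at most 9.99 percent in the deposited cells). This annotation was used as deposited, and it holds more ECs per genotype than the methods of the study state. Of the annotation's columns, 12 were not used. How doublets were handled before deposit is not given in the sources used here, and no doublets were removed. Of the cells, 2874 fell in 830 groups of barcodes that differ only in their last base, so some may be 1 bead counted more than once.

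UMIs were summed per replicate and cell type, and sums of at least 10 cells entered means. Between genotypes, edgeR 4.0.16 was used on the sums (filterByExpr, TMM scaling, quasi-likelihood test) with Benjamini-Hochberg adjustment over all genes kept and a threshold of 0.05, with DESeq2 1.42.0 as an alternative. The interaction of genotype with subtype was fitted over the 3 EC subtypes with the library as a term. The fits were tested on simulated data. For ratios within a replicate 0.5 UMI was added to each sum. For shares, cells were drawn down to 500 UMIs with a fixed seed. Intervals are 95% Wilson intervals. Neighbouring cell types were called apart where the difference of means exceeded the sum of their SDs. Likeness to Sema7a was computed on log2 of mean CPM plus 10. Other software was R 4.3.3 with limma 3.58.1, and Python 3.11.15 with pandas 2.3.3, matplotlib 3.10.9, scipy 1.17.1 and numpy 2.4.6.

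Members and gene lists were chosen with earlier results of these data known. Named genes are the 9 members, the 3 other family or signalling genes of smallest p in each EC subtype with any that passed, the family genes highest in each cell type, the 5 genes most like Sema7a, and Nos3. Itgb1 and the markers set beside Sema7a were named in addition. Positions of genes were read from GENCODE's annotation of GRCm38, and the annotation the authors counted on is not given in the sources used here. Promoter sequences come from RefSeq (GRCm38.p6).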

Additional observations from a re-analysis of the deposited data

How the results depend on the processing

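Depth limits the members most in eNOS-/- replicate 3 and in cell types outside ECs, where a single UMI can set a level. Under alternatives other than leaving out a replicate, 338 values of the genotype difference of members and named genes kept their sign and their side of the threshold and 12 changed sign: Sema6a in all ECs without cells holding a mural marker UMI (0.032, an alternative added after seeing the data), Sema3g in Tip ECs under the replicate block (-0.000171) and Nrp1 in Proliferative ECs with DESeq2 (-0.016), and 9 with the set of library numbers (701 to 703 against 704 to 706) as a term, also added after seeing the data. These were Sema7a (0.12), Plxna2 (-0.038), Sema3g (-0.084) and Sema6a (-0.067) in Structural ECs, Sema3f (-0.16) and Nrp2 (0.012) in Tip ECs, Nrp1 (-0.10) in Proliferative ECs, and Sema3g (-0.15) and Nos3 (0.061) in all ECs. The cause was not tested.

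The number of genes passing was 2 with DESeq2, 8 without the filter on low counts and 2 over cells of at least 500 UMIs in Tip ECs; 74 without the filter and 0 over cells of at least 500 UMIs in Structural ECs; 10 without the filter and 5 without cells holding a mural marker UMI in Proliferative ECs; 84 without the filter and 1 over cells of at least 500 UMIs in all ECs; and 5 (Tip) and 1 (Proliferative) without the filter for the interactions. With each replicate left out in turn it lay between 0 and 25 for Tip ECs, 0 and 28 for Structural ECs, 0 and 73 for Proliferative ECs and 0 and 78 for all ECs, highest without eNOS-/- replicate 3, and was 0 for both interactions. No member was among the genes passing in any of these fits.

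Replicates 1 of both genotypes fell in the same set of library numbers, as did replicates 3, whereas replicates 2 fell in different sets. Correlations between the deviations of same-numbered replicates lay from -0.076 to 0.133. Over all pairs of an eNOS+/+ and an eNOS-/- replicate they ran from -0.170 to 0.134, above 0 for every pair within a set of library numbers and below 0 for every pair across the sets. Each replicate enters several pairs, and the sums of all ECs are made of the 3 subtypes, so these signs are not independent. With the set of library numbers as a term, 10 genes passed in Structural ECs, 9 in all ECs and 2 each in Tip and Proliferative ECs. In that fit Sema6d in Proliferative ECs had a log2 fold change of 0.96 with an edgeR adjusted p of 0.705. With the replicate number as a block, the fit of Tip ECs had 1 gene passing, that of Structural ECs 11, that of Proliferative ECs 3 and that of all ECs 2, and Sema7a in Tip ECs had a log2 fold change of -1.25 with an edgeR adjusted p of 0.358.

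Leaving out 1 replicate moved these log2 fold changes across 0. In Tip ECs Plxna2 ranged from -0.50 to 0.050, Sema3g from -0.18 to 0.35, Nrp1 from -0.40 to 0.47 and Nrp2 from -0.18 to 0.032. In Structural ECs Sema7a ranged from -0.55 to 0.25, Plxnd1 from -0.049 to 0.25, Sema3c from -0.42 to -0.023 (0.08 with all replicates), Sema3g from -0.027 to 0.45 and Sema6a from -0.081 to 0.29. In Proliferative ECs Sema3g ranged from -0.72 to 0.093, Sema6a from -0.089 to 0.21, Sema6d from -0.037 to 0.66 and Nrp1 from -0.29 to 0.23. In all ECs Plxna2 ranged from -0.32 to 0.053, Sema3c from -0.33 to 0.55, Sema3f from -0.45 to 0.10, Sema3g from -0.11 to 0.31 and Sema6a from -0.23 to 0.090. For the interactions, Sema3g (Tip) ranged from -0.64 to 0.31, Sema6a (Proliferative) from -0.28 to 0.12 and Sema7a (Proliferative) from -0.49 to 0.071.

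Shares of cells with a UMI moved with the depth drawn down to. At 300 UMIs, 1000 UMIs and not drawn down, they were 3.41, 9.74 and 13.6% for Sema7a, 9.06, 24.6 and 31.9% for Sema6d, 12.5, 37.8 and 40.3% for Plxnd1 and 4.49, 14.0 and 16.4% for Plxna2 in Tip ECs, and 1.91, 6.86 and 6.42%, 4.65, 14.6 and 13.5%, 7.08, 22.5 and 20.2%, and 2.13, 7.05 and 6.63% in Structural ECs in the same order. Under alternatives other than leaving out a replicate, no ratio of Tip to Structural ECs moved by more than 1 SD. Plxnc1 changed sign there, from -0.17 to 0.23 with 2 UMIs added. Leaving out 1 of 6 replicates cannot move a mean by 1 SD, so that limit says nothing about it. With a replicate left out the log2 ratio crossed 0 for Sema6a (-0.17 to 0.040) and Plxnc1 (-0.39 to 0.29).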
